A study of Mus musculus with 12 samples.

Results

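The calvaria of newborn mice, a flat bone of the skull vault, yielded RNA of 40 genes of the skeletal muscle sarcomere and of muscle contraction beside the RNA of bone cells. The 40 genes were a fixed list made up of 6 skeletal myosin heavy chains, 5 light chains, 3 thick filament genes, 8 thin filament and Z disc genes, 6 troponins, 5 genes of excitation and calcium handling, 4 genes of energy supply and 3 myogenic regulators. They were 40 of the 23715 genes that carried values, and the list was made without a threshold on any value. This list and the further gene lists were chosen with earlier results of these data known. Their counts beside the shares of all tested genes are therefore descriptions only. The total RNA of 12 C57BL/6 mice was sequenced, 3 in each of 4 groups. P-Ctrl mice were control littermates (labelled WT, with Med23 fl/fl mice as controls in the study) of P-KO mice, in which Med23, a subunit of the Mediator complex of transcription, was deleted in mesenchymal stem cells by Prx1-Cre (Med23-/-). R-WT mice were wild-type littermates of R-Het mice, which carried a single working allele of the bone transcription factor Runx2 in every cell (Runx2+/-). Prx1-Cre acts largely in limb and craniofacial mesenchyme and not in all cells of the calvaria. The labels give whole calvaria of newborns, the study's methods the parietal bone shortly after birth, and neither says how muscle and membranes were removed from the bone.

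A skeletal muscle fibre is filled with sarcomeres, in which thick filaments of myosin pull on thin filaments of actin. Tropomyosin and the troponins C, I and T lock the thin filament until calcium, released from the sarcoplasmic reticulum through the ryanodine receptor, binds troponin C. Fibres switch isoforms as they mature, from embryonic and perinatal myosin heavy chains to adult fast or slow ones, and fast and slow fibres use separate troponins and light chains. Muscles of the head and neck, such as the temporalis, lie on or attach to the skull vault, whereas osteoblasts are not known to build sarcomeres. In RNA of a whole tissue, fewer muscle cells and less RNA per muscle cell cannot be told apart.

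RefSeq promoters on GRCm38.p6 were found for 34 of the 40 genes, and the 250 bases before the start were searched. E boxes (CANNTG, searched in both strands at once since the letters read the same on each), to which the myogenic regulators bind, lay in 79.4% of the 34 promoters and in 66.0% of all 27025 promoters of the same length. The letters CAGCTG, an E box that MyoD is known to bind and which is counted within CANNTG as well, lay in 13 of the 34 (38.2%), against 12.8% of all promoters. The CArG box, a site of serum response factor searched by its consensus, lay in 4 (11.8%), against 1.4%, and TATAAA on either strand in 7 (20.6%), against 13.0%. These shares are descriptions of letters, and no binding was measured. The 5 promoters shown belong to both sarcomeric actin genes, to the genes of the most abundant light chain and of muscle creatine kinase, and to myogenin, and capitals mark CANNTG and the CArG box.
Acta1 (chr8:123894776-123895025, minus strand): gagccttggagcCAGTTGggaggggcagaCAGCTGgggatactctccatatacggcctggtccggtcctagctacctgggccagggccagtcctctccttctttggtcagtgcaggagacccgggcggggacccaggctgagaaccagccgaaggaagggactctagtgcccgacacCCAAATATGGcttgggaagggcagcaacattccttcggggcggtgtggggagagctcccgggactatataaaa
Actc1 (chr2:114052876-114053125, minus strand): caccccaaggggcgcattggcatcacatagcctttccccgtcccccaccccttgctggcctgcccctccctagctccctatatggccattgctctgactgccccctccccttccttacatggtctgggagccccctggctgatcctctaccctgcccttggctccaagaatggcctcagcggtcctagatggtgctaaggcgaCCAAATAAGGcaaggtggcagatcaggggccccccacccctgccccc
Mylpf (chr7:127211358-127211607, plus strand): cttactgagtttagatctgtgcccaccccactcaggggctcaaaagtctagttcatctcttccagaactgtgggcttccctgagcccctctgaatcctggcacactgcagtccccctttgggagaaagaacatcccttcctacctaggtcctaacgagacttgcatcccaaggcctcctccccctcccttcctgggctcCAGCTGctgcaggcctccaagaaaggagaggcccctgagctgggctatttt
Ckm (chr7:19410844-19411093, plus strand): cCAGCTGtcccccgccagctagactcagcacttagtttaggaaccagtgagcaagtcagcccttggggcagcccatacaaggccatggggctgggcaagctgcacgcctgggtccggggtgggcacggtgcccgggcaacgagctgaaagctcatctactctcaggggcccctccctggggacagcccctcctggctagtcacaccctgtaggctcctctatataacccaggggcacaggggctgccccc
Myog (chr1:134289754-134290003, plus strand): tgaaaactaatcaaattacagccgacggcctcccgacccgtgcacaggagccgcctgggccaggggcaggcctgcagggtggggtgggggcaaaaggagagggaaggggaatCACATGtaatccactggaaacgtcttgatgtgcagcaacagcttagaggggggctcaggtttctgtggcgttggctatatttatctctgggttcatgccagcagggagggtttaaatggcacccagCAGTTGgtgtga
The promoters of Acta1 and Actc1 carry their CArG boxes 73 and 47 bases before the start, and that of Actc1 holds no CANNTG in this window.

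The values are FPKM, which count fragments relative to transcript length and library size, added up over the transcripts of a gene. Judged by the smallest values, a library held roughly 7720000 to 11800000 fragments. Testing was limited to the 13059 genes that reached 1 FPKM in 3 or more mice, and 33 of the 40 muscle genes did so. Because 19 of these 33 fell under 1 FPKM in at least 1 mouse, they passed through the mice in which muscle RNA was high, and counts over the 33 carry this selection. Med23 was at 5.32 ± 0.732 FPKM in P-Ctrl and 5.30 ± 0.425 FPKM in P-KO, and Runx2 at 31.6 ± 5.39 FPKM in R-WT and 33.5 ± 2.76 FPKM in R-Het (SD, n = 3 mice each). Such whole-gene values do not read a deleted part of a gene, so the genotypes were taken from the labels. Xist, which female cells transcribe, stood at 37.8 to 49.1 FPKM in P-Ctrl 2, P-Ctrl 3 and R-WT 1 and at no more than 0.0663 FPKM in the other 9 mice. P-values measure the spread between these mice only.

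The summed level of the 40 genes spread over 70.9 times between the 12 mice. It was 1827, 103.1 and 482 FPKM in P-Ctrl 1, 2 and 3, and 5435, 863.6 and 4308 FPKM in P-KO 1, 2 and 3. It was 2555, 2483 and 7242 FPKM in R-WT 1, 2 and 3, and 313.7, 279.6 and 102.2 FPKM in R-Het 1, 2 and 3. R-WT 3 was the highest mouse and R-Het 3 the lowest, P-Ctrl 1 stood above P-KO 2, and all R-Het mice stood below all R-WT mice. As a share of all FPKM, the 40 genes took 0.678% in R-WT 3 and 0.0100% in R-Het 3. Mice of the same genotype differed by 17.7 times in P-Ctrl, 6.29 times in P-KO, 2.92 times in R-WT and 3.07 times in R-Het.

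**Figure D1:**
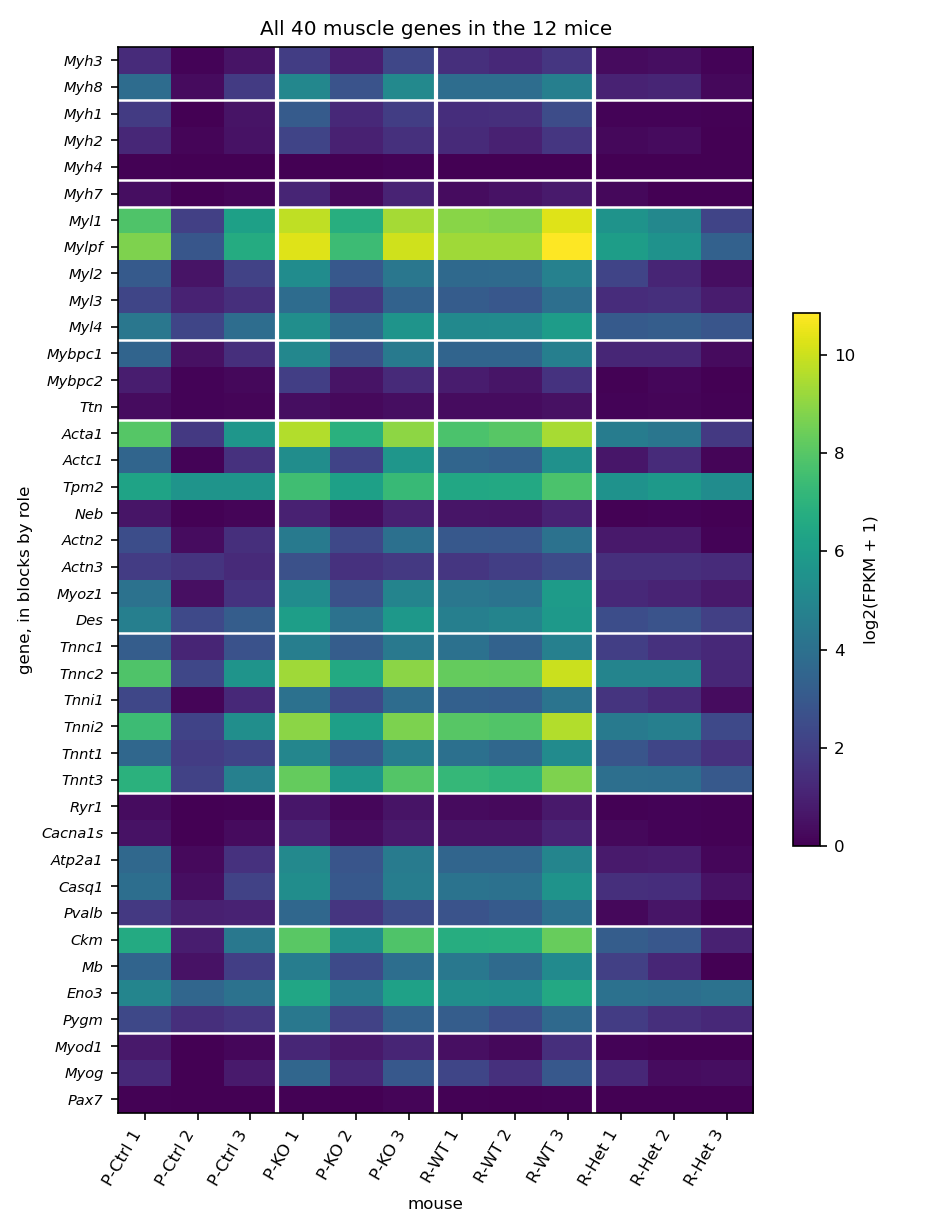
Levels of the 40 muscle genes (rows, in blocks by role, as log2 of FPKM + 1) in the 12 mice (columns, 3 per group). Whole columns are bright or dark together, with R-WT 3, P-KO 1 and P-KO 3 bright and P-Ctrl 2 and the 3 R-Het mice dark, and Myh4, Ttn and Pax7 are dark throughout.

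The genes ordered the mice much alike. Of the 33 tested genes, 18 were highest in R-WT 3, 12 in P-KO 1 and 3 in P-KO 3, and 16 each were lowest in P-Ctrl 2 and in R-Het 3 and 1 in P-Ctrl 3. Within the groups, all 33 were highest in P-Ctrl 1, lowest in P-KO 2 and highest in R-WT 3, and 30 were lowest in R-Het 3. In the 28 tested genes above 0 in every mouse, the highest mouse exceeded the lowest by 3.71 to 771.6 times, with a median of 138. The ratio was under 10 in only 3 of them, namely Actn3, Tpm2 and Eno3, which encode a fast alpha-actinin, a tropomyosin also made outside skeletal muscle and the muscle enolase.

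Among the myosin heavy chains, the motors of the thick filament, the perinatal Myh8 led in every mouse. Myh8 stood at 13.4, 0.25 and 2.67 FPKM in P-Ctrl 1, 2 and 3, and at 31.6, 5.88 and 33 FPKM in P-KO 1, 2 and 3. It stood at 13.7, 13.5 and 24.7 FPKM in R-WT 1, 2 and 3, and at 1.07, 1.15 and 0.17 FPKM in R-Het 1, 2 and 3. The R-Het mice lay below all R-WT mice, while P-Ctrl 1 lay inside the range of P-KO.

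The embryonic Myh3 was below Myh8 in every mouse. Myh3 was at 1.53, 0.064 and 0.51 FPKM in P-Ctrl, 2.89, 0.91 and 3.98 FPKM in P-KO, 1.75, 1.39 and 2.32 FPKM in R-WT and 0.26, 0.31 and 0.085 FPKM in R-Het (mice 1, 2 and 3 in turn). Both developmental chains were thus lowest in P-Ctrl 2 among control mice and in R-Het 3 among Runx2+/- mice. On GRCm38, Myh3, Myh2, Myh1, Myh4 and Myh8 lie in this order in a cluster on chromosome 11, from 67078273 at the start of Myh3 to 67308634 at the end of Myh8, and Myh7 lies on chromosome 14.

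The adult fast heavy chains were lower and uneven. Myh1, the chain of type 2X fibres, was at 2.66, 0.022 and 0.49 FPKM in P-Ctrl, 7.53, 1.36 and 2.87 FPKM in P-KO, 1.70, 1.77 and 4.82 FPKM in R-WT and 0.072, 0.065 and 0.058 FPKM in R-Het. Myh2, that of type 2A fibres, was at 1.34, 0.10 and 0.45 FPKM in P-Ctrl, 3.6, 1.01 and 1.81 FPKM in P-KO and 1.43, 1.02 and 2.28 FPKM in R-WT. It was at 0.17 and 0.25 FPKM in R-Het 1 and 2 and was listed at 0 in R-Het 3. Myh4, that of type 2B fibres, was listed at 0 in 9 mice and reached 0.086 FPKM at most. Myh7, the slow chain, was at 0.33, 0 and 0.11 FPKM in P-Ctrl, 1.19, 0.19 and 1.12 FPKM in P-KO, 0.29, 0.42 and 0.74 FPKM in R-WT and 0.18, 0.023 and 0.018 FPKM in R-Het. R-Het mice lay below R-WT mice in all of these but Myh4, which could not separate the groups at such levels.

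Divided by the sum of the 6 chains, the developmental pair Myh3 and Myh8 made up 71.2% to 86.3% in each of the 12 mice, whatever the total. That share was 77.5% to 82.2% in R-WT and 75.7% to 81.4% in R-Het, so the ranges overlapped although the summed level was 34.8, 18.2 and 18.8 FPKM in R-WT 3, 2 and 1 and 1.75, 1.79 and 0.33 FPKM in R-Het 1, 2 and 3. It was 71.2% to 77.3% in P-Ctrl and 72.6% to 86.3% in P-KO, which overlapped as well. Myh3 alone held a larger share in R-Het (14.6% to 25.8%) than in R-WT (6.66% to 9.28%), and Myh8 a smaller share in R-Het (51.0% to 64.3%) than in R-WT (70.8% to 74.6%), without overlap in either case. The control P-Ctrl 2, also low in muscle RNA, had 14.6% for Myh3 and 56.6% for Myh8, within the R-Het ranges. P-Ctrl 1 had 7.95% and 69.3%, outside them, and P-Ctrl 3 lay within the R-Het range for Myh8 only (63.1%). The sum of the 6 chains in R-Het 3 and P-Ctrl 2 was under 1 FPKM, where the shares rest on few fragments. Myh3 itself did not pass 0.31 FPKM in any R-Het mouse, so its R-Het shares all rest on few fragments.

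**Figure D2:**
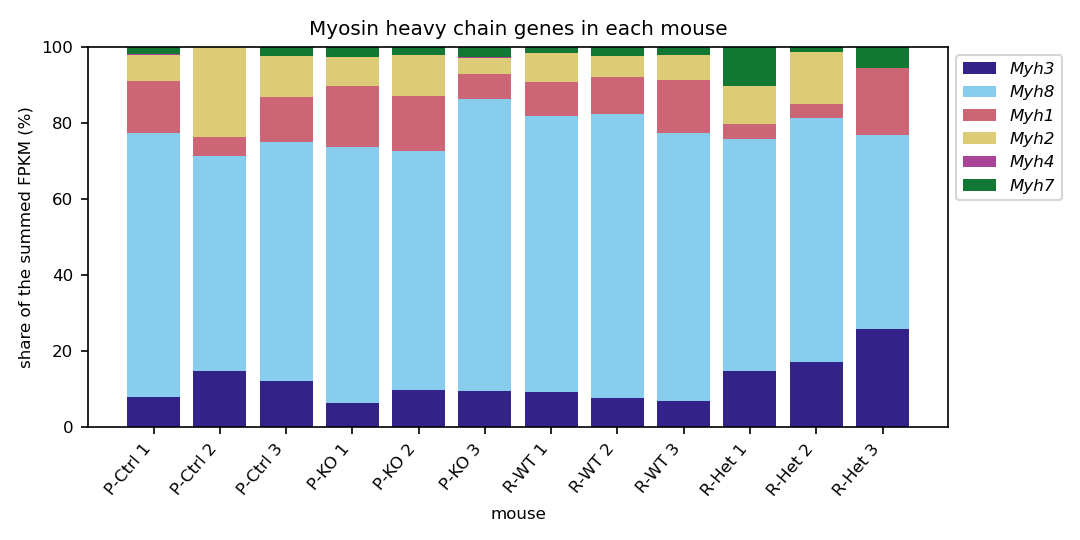
Share of each myosin heavy chain gene in the summed FPKM of the 6 genes (%, stacked bars that add up to 100) in each of the 12 mice. Myh8 fills 51.0% to 77.0% of every bar, and Myh3 is widest in R-Het 3 at 25.8%.

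Averaged over the 12 mice, the fast light chains Mylpf and Myl1 carried the highest levels of the list (521 and 356 FPKM), while Tpm2 was above Mylpf in P-Ctrl 2, R-Het 2 and R-Het 3. Mylpf, the fast regulatory light chain, was at 427, 6.58 and 100 FPKM in P-Ctrl, 1255, 173 and 1070 FPKM in P-KO, 631, 629 and 1837 FPKM in R-WT and 65.0, 45.2 and 9.29 FPKM in R-Het. Myl1, the fast essential light chain, was at 231, 3.10 and 70.6 FPKM in P-Ctrl, 883, 109 and 663 FPKM in P-KO, 489, 450 and 1291 FPKM in R-WT and 46.0, 32.7 and 3.69 FPKM in R-Het. In both, P-Ctrl spread so far that its highest mouse passed the lowest P-KO mouse, while R-Het and R-WT did not meet.

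Myl1 gives 2 proteins from alternative starts, the longer of 188 and the shorter of 150 amino acids in the annotation. The transcript of the shorter protein held 86.8% to 87.5% of the Myl1 level in R-WT, 82.2%, 88.9% and 46.8% in R-Het 1, 2 and 3, 72.0% to 80.4% in P-Ctrl and 78.9% to 84.6% in P-KO. The R-WT mice thus lay above all 6 mice of the P-Ctrl and P-KO set. The estimates depend on reads in the unshared part of the transcripts, since the rest is common to both. The slow light chains Myl2 and Myl3 and the embryonic and atrial Myl4 reached at most 37.8, 14.5 and 61.8 FPKM.

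Among the remaining thick filament genes, Mybpc1, the slow myosin binding protein C, was at 10.3, 0.40 and 1.76 FPKM in P-Ctrl, 31.3, 5.53 and 20.4 FPKM in P-KO, 10.4, 10.4 and 24.5 FPKM in R-WT and 1.24, 1.24 and 0.26 FPKM in R-Het. Its fast relative Mybpc2 was at 0.82, 0.079 and 0.16 FPKM in P-Ctrl, 3.09, 0.49 and 1.44 FPKM in P-KO, 0.76, 0.52 and 2.05 FPKM in R-WT and 0.043, 0.14 and 0.026 FPKM in R-Het. The slow form was the more abundant in every mouse. Ttn, which encodes the giant spring titin, stayed at 0.058 to 0.40 FPKM, with the R-Het mice (0.058 to 0.093 FPKM) below the R-WT mice (0.27 to 0.40 FPKM).

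Of the thin filament, Acta1, the skeletal alpha-actin, was at 254, 2.49 and 51.1 FPKM in P-Ctrl, 773, 119 and 514 FPKM in P-KO, 220, 260 and 689 FPKM in R-WT and 22.4, 18 and 2.46 FPKM in R-Het. P-Ctrl 2 and R-Het 3 were thus level, though they belong to different sets and genotypes. Actc1, the cardiac alpha-actin that skeletal muscle also makes before birth, held 2.45% to 9.0% of the sum of both actins. Tpm2, beta-tropomyosin, was at 78.4, 47.2 and 47.3 FPKM in P-Ctrl, 184, 71.5 and 157 FPKM in P-KO, 90.4, 92.2 and 216 FPKM in R-WT and 45.6, 56.4 and 37.3 FPKM in R-Het. In P-Ctrl 2 and R-Het 3, where Acta1 was at 2.49 and 2.46 FPKM, Tpm2 was still at 47.2 and 37.3 FPKM.

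The troponins set fast against slow forms of the same subunit. Tnnc2, fast troponin C, was at 228, 3.92 and 48.0 FPKM in P-Ctrl, 623, 94.8 and 501 FPKM in P-KO, 315, 305 and 1005 FPKM in R-WT and 28.8, 28.9 and 1.30 FPKM in R-Het. Tnni2, fast troponin I, was at 173, 3.53 and 39.5 FPKM in P-Ctrl, 501, 69.5 and 417 FPKM in P-KO, 261, 237 and 780 FPKM in R-WT and 20.6, 24.6 and 4.19 FPKM in R-Het. Both repeated the pattern of the light chains.

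As means per group (SD, n = 3 mice each), Tnnc2 fell from 542 ± 402 FPKM in R-WT to 19.6 ± 15.9 FPKM in R-Het, and its slow partner Tnnc1 from 16.8 ± 7.94 to 2.11 ± 0.878 FPKM. Tnni2 fell from 426 ± 307 to 16.5 ± 10.8 FPKM and Tnni1 from 11.5 ± 4.97 to 1.27 ± 0.912 FPKM. For troponin T, the fast Tnnt3 fell from 237 ± 168 to 11.9 ± 4.12 FPKM, and the slow Tnnt1, at 21.2 ± 13.8 in R-WT and 4.0 ± 2.16 FPKM in R-Het, missed the threshold with an adjusted p of 0.0654 by limma. In the other set, the means of P-Ctrl and P-KO were 93.4 ± 119 and 406 ± 277 FPKM for Tnnc2, 4.97 ± 3.52 and 17.4 ± 8.36 FPKM for Tnnc1, and 72.0 ± 89.2 and 329 ± 229 FPKM for Tnni2. They were 1.82 ± 1.97 and 11.0 ± 5.98 FPKM for Tnni1, 50.1 ± 62.6 and 202 ± 134 FPKM for Tnnt3, and 5.83 ± 4.66 and 20.2 ± 11.9 FPKM for Tnnt1. None of these P-KO differences passed the test.

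The fast form of each pair held nearly all of the troponin level in R-WT and less in R-Het. Tnnt3 held 90.7% to 92.1% of Tnnt3 and Tnnt1 in R-WT and 70.2% to 79.0% in R-Het, and Tnni2 held 96.6% to 97.8% in R-WT and 90.8% to 94.5% in R-Het. Tnnc2 held 95.3% to 97.5% in R-WT, 90.4% and 93.8% in R-Het 1 and 2 and 49.2% in R-Het 3. In R-Het 3, Tnnc2 and Tnnc1 were at 1.30 and 1.35 FPKM, so that share rests on few fragments. The shares of R-Het lay below those of R-WT without overlap for all 3 subunits. P-Ctrl 2, the control mouse with the least muscle RNA, had 76.7% for Tnnc2, 97.1% for Tnni2 and 55.1% for Tnnt3, and thus low shares for troponins C and T only. Its Tnnt3 share lay below those of all R-Het mice.

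**Figure D3:**
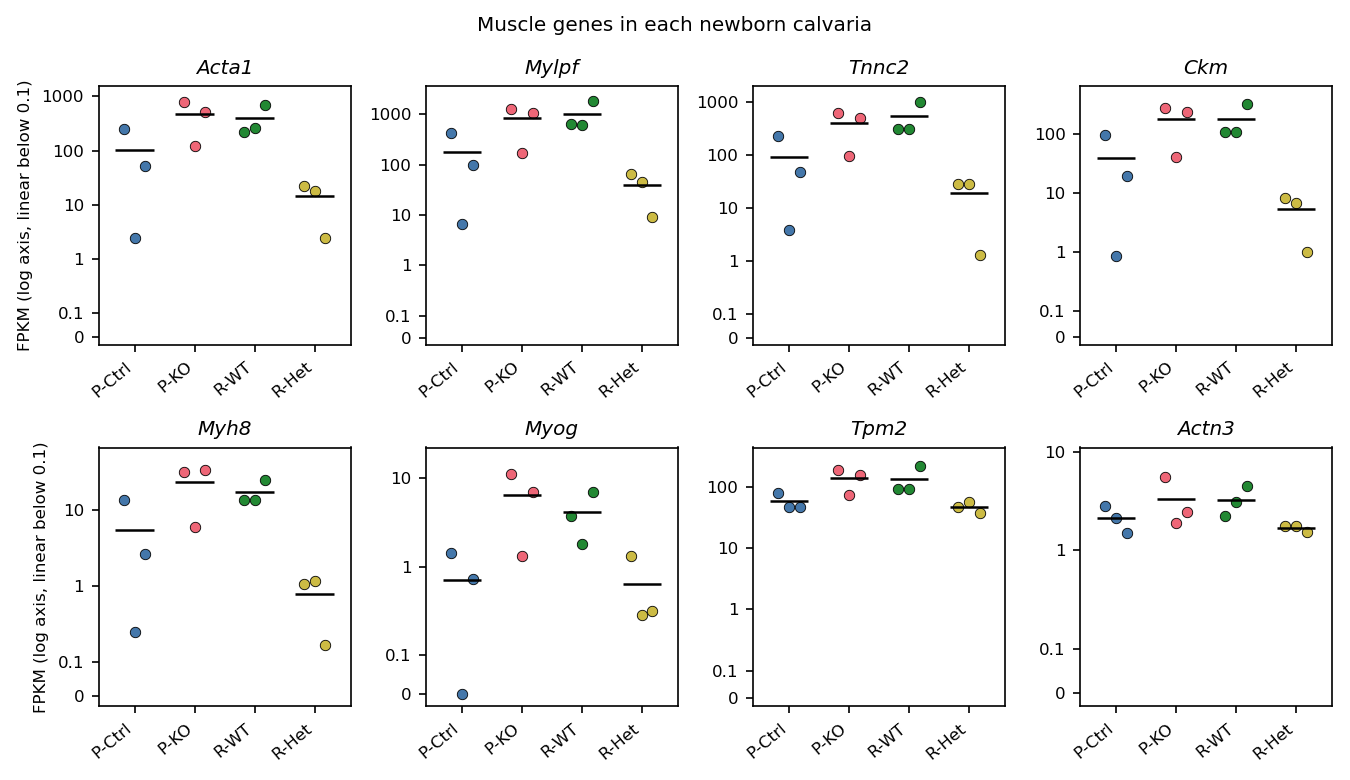
FPKM of 8 muscle genes in each mouse (points, log axis that is linear below 0.1, 3 mice per group from left to right as 1, 2 and 3, with the group mean as a bar). In Acta1, Mylpf, Tnnc2, Ckm and Myh8 the R-Het points lie far below R-WT and P-Ctrl spreads most, while Tpm2 and Actn3 differ less.

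Calcium handling was represented by Casq1, calsequestrin of the fast sarcoplasmic reticulum, at 14.0, 0.32 and 3.44 FPKM in P-Ctrl, 38.8, 6.82 and 23.3 FPKM in P-KO, 16.7, 15.5 and 47.2 FPKM in R-WT and 1.77, 1.69 and 0.44 FPKM in R-Het. Atp2a1, the calcium pump of fast fibres, was at 11.8, 0.21 and 1.93 FPKM in P-Ctrl, 33.5, 6.23 and 22 FPKM in P-KO, 10.6, 10.5 and 30.0 FPKM in R-WT and 0.73, 0.77 and 0.13 FPKM in R-Het. The channels themselves were scarce, as Ryr1, the ryanodine receptor, did not pass 0.66 FPKM and Cacna1s, the voltage sensor of the T tubule, did not pass 1.13 FPKM.

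In energy supply, Ckm, muscle creatine kinase, was at 97.0, 0.85 and 19.4 FPKM in P-Ctrl, 270, 39.6 and 232 FPKM in P-KO, 107, 109 and 322 FPKM in R-WT and 8.21, 6.61 and 1.00 FPKM in R-Het. Its ratio to Acta1 lay between 0.333 and 0.486 in all 12 mice, so that both genes scaled together. Eno3, muscle enolase, was at 29.6, 10.9 and 16.0 FPKM in P-Ctrl, 84.6, 22.5 and 73.3 FPKM in P-KO, 39.7, 38.0 and 92.9 FPKM in R-WT and 15.6, 14.2 and 16.2 FPKM in R-Het. Eno3 was highest in R-Het 3 among the R-Het mice, whereas 30 of the 33 tested genes were lowest there.

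The myogenic regulators were low. Myog, myogenin, which acts when myoblasts fuse, was at 1.41, 0 and 0.72 FPKM in P-Ctrl, 11.1, 1.30 and 7.02 FPKM in P-KO, 3.76, 1.81 and 6.99 FPKM in R-WT and 1.30, 0.28 and 0.31 FPKM in R-Het. Myod1, which commits cells to the muscle lineage, was at 0.69, 0 and 0.14 FPKM in P-Ctrl, 1.22, 0.67 and 1.19 FPKM in P-KO and 0.36, 0.19 and 1.73 FPKM in R-WT. It was at 0.065 FPKM in R-Het 1 and listed at 0 in R-Het 2 and 3. Pax7, the factor of satellite cells, did not pass 0.095 FPKM in any mouse. Myog and Myod1 did not pass the test in either comparison.

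Levels ran against transcript length. The 11 genes with transcripts of 5000 bases or more had mean levels over the 12 mice of 0.0124 to 11.8 FPKM, with a median of 0.432, and the 20 genes under 2000 bases had a median of 14.2 FPKM. Titin and nebulin, with 81843 and 22489 bases, rested on roughly 37 to 314 and 4 to 221 fragments per mouse, against 27 to 9606 for Acta1. Ttn, Neb, Ryr1, Cacna1s, Myh7, Myh4 and Pax7 were the 7 genes that stayed out of the tests.

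The comparison of P-KO with P-Ctrl asked how calvariae of mice with Med23 deleted in mesenchyme differed from those of controls. All 33 tested muscle genes had higher means in P-KO, by 0.38 (Actn3) to 3.34 (Acta1) on the log2 scale of FPKM + 1, with a median of 1.92 against 0.06 over all tested genes. None passed the test (limma, adjusted p of 0.112 to 0.520), while 1.01% of all tested genes were called higher. At an unadjusted p under 0.05, 21 of the 33 were higher, against 15.7% of all tested genes. The lack of calls depended on the model. With all 12 mice in 1 fit, 1 of the 33 passed, and once replicate numbers were modelled as blocks, 26 were called higher. No label says whether those numbers pair the mice. The group means were 103 ± 134 and 468 ± 329 FPKM for Acta1 (log2 fold change 3.34, SE 1.46, adjusted p = 0.245 by limma) and 5.42 ± 6.97 and 23.5 ± 15.3 FPKM for Myh8 (2.29, SE 0.94, adjusted p = 0.223). Tnni1 was the single gene whose P-KO mice all lay above the P-Ctrl mice, among 19.6% of all tested genes that did so, and had the lowest adjusted p of 0.112.

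Mice of both genotypes overlapped, with P-Ctrl 1 above P-KO 2 in 32 of the 33 genes. Without P-Ctrl 2 the median log2 fold change was 1.38, and without both P-Ctrl 2 and P-Ctrl 3, the controls with Xist, it was 0.53. P-KO held no mouse with Xist, and within this set 2 of the 3 controls differed from all mutants in Xist as well as in genotype. By fibre type, none of 13 tested fast genes, 6 slow genes and 4 developmental genes passed, and their median log2 fold changes were 2.25, 1.96 and 1.85. These medians depend on the level of the genes, since the added 1 FPKM shrinks changes more at low levels.

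The comparison of R-Het with R-WT asked the same of mice with a lost Runx2 allele. No source gives how much muscle was left on each bone. Its part and that of genotype cannot be told apart in either comparison, and neither was tested. All 33 tested muscle genes were lower in every R-Het mouse than in every R-WT mouse, which held for 10.4% of all tested genes. With the untested ones this held for 38 of the 40, and the exceptions were Myh4 and Pax7. Since the genes ordered the mice much alike, they are not separate observations. Of the 33 tested genes, 27 passed the test as lower and none as higher (limma, adjusted p under 0.05), against 1.49% of all tested genes called lower and 0.398% called higher. The log2 fold changes ran from -5.18 (Tnnc2) to -0.63 (Actn3), with a median of -2.82 against 0.02 over all tested genes. Mean levels in R-Het were 3.67% of those in R-WT for Acta1, 3.63% for Tnnc2, 2.94% for Ckm and 4.60% for Myh8.

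Genes of every role with tested members passed as lower except the myogenic regulators, of which neither tested gene passed. These 2, Myod1 and Myog, were still lower in every R-Het mouse than in every R-WT mouse. Their R-Het means were 2.85% and 15.1% of the R-WT means. Their log2 fold changes were -0.68 and -1.59, at levels where the added 1 FPKM shrinks such changes. Both developmental heavy chains passed, Myh8 by -3.35 (SE 0.29, adjusted p = 0.0054 by limma) and Myh3 by -1.20 (SE 0.18, adjusted p = 0.0202), and so did the fast Myh1 (-1.72, adjusted p = 0.0336) and Myh2 (-1.15, adjusted p = 0.0421). All 5 light chains passed as lower, with Myl1 at -5.08 (SE 0.82) and Mylpf at -4.84 (SE 0.69), as did 5 of 6 troponins. In the thin filament and Z disc, 5 of 7 tested genes passed as lower, among them Acta1 (-4.88, SE 0.72, adjusted p = 0.0218). All 3 tested genes of calcium handling and all 4 of energy supply passed as lower, with Ckm at -4.91 (SE 0.62). Mybpc1 fell by 3.01 on the log2 scale, while Mybpc2 did not pass (-0.91, adjusted p = 0.150 by limma). Their R-Het means were nonetheless alike as shares of the R-WT means, at 6.06% and 6.32%. Mybpc2 also lay at levels where the added 1 FPKM shrinks its change.

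By fibre type, 11 of 13 tested fast genes, 5 of 6 slow genes and 4 of 4 developmental genes passed as lower. All tested genes of these 3 lists had negative log2 fold changes, with medians of -3.45, -2.47 and -2.87. The added 1 FPKM shrinks changes more at low levels, so these medians do not rank the fibre types. Myh1, at 2.36% of its R-WT mean, had -1.72, and Acta1, at 3.67%, had -4.88. The 6 genes that did not pass were Mybpc2, Tpm2, Actn3, Tnnt1, Myod1 and Myog, with adjusted p-values by limma of 0.065 to 0.350. Tpm2 and Actn3 kept 35.0% and 51.7% of their R-WT means. Without R-WT 1 the count of 27 was 10, and without R-WT 3 it was 17, with no gene higher in either case. It was 0 with no filter on low values, where the lowest adjusted p was 0.0516, 1 with all 12 mice in 1 fit, and 12 with the replicate number as a block.

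**Figure D4:**
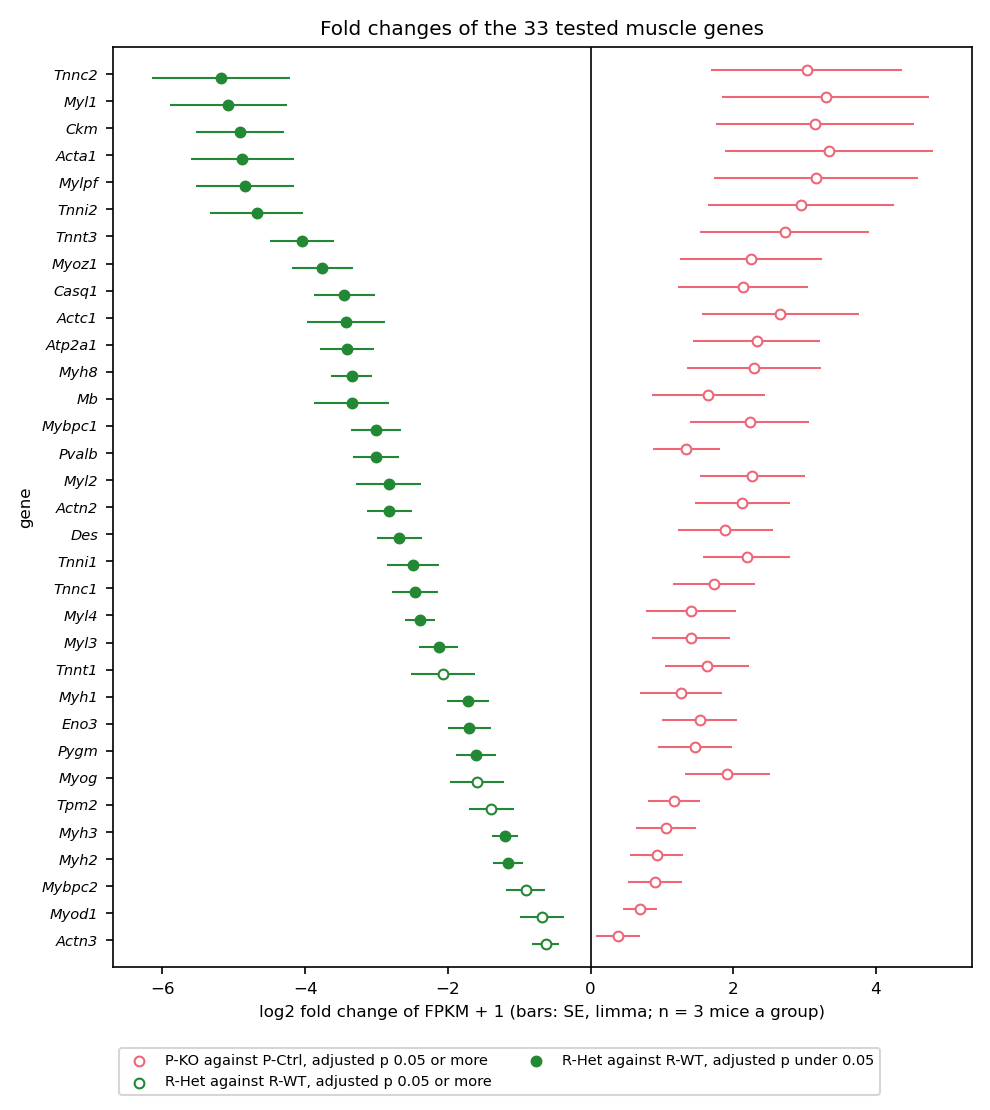
Log2 fold change of FPKM + 1 (points, with SE from limma as bars, n = 3 mice per group) of the 33 tested muscle genes in P-KO against P-Ctrl (red) and R-Het against R-WT (green), filled where the adjusted p was under 0.05. All red points lie right of 0 and none is filled, and all green points lie left of 0 with 27 filled.

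The changes in both sets were set against each other in a fit of all 12 mice. Every one of the 33 tested genes had the larger value in the P-KO set, by 1.01 to 8.38 on the log2 scale with a median of 4.68, and all 33 had an unadjusted p under 0.05, against 11.1% of all tested genes. Only Actn2 and Pvalb passed the adjusted threshold (limma), against 0.0613% of all tested genes. Actn2, the alpha-actinin of the Z disc, changed by 2.13 (SE 0.66) in P-KO and by -2.82 (SE 0.32) in R-Het, a difference of 4.95 (SE 0.83, adjusted p = 0.0481). Pvalb, parvalbumin, a calcium buffer of fast fibres, changed by 1.34 (SE 0.47) and -3.01 (SE 0.32), a difference of 4.36 (SE 0.64, adjusted p = 0.0353). For Acta1 and Tnnc2 the differences were larger, 8.22 (SE 1.85) and 8.21 (SE 1.89), and missed it with adjusted p-values of 0.0745 and 0.0779.

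Per mouse, Actn2 was at 4.87, 0.30 and 1.72 FPKM in P-Ctrl, 20.7, 4.11 and 14.8 FPKM in P-KO, 7.01, 6.76 and 15.8 FPKM in R-WT and 0.67, 0.66 and 0.070 FPKM in R-Het. Pvalb was at 2.45, 0.92 and 1.07 FPKM in P-Ctrl, 11.3, 2.15 and 4.79 FPKM in P-KO, 5.91, 7.33 and 15.6 FPKM in R-WT and 0.17 and 0.55 FPKM in R-Het 1 and 2, and it was listed at 0 in R-Het 3. In both genes P-Ctrl 1 passed P-KO 2, and R-Het lay below R-WT. The calls rested on single mice, since leaving out a mouse left 0 to 29 of the 33 genes called, 29 without P-KO 2, 27 without P-Ctrl 1 and 0 without P-Ctrl 2, P-Ctrl 3, P-KO 1, P-KO 3, R-WT 3, R-Het 1 or R-Het 3.

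Of 32 further genes of skeletal muscle, 28 were tested, and 13 passed as lower in R-Het, against 1.49% of all tested genes. All 28 had negative log2 fold changes in R-Het, with a median of -1.47. None passed in P-KO by limma (median 1.1), where 14 were higher at an unadjusted p under 0.05, against 15.7% of all tested genes, and Fbxo32 was lower (-0.47, limma, adjusted p 0.102). In P-KO 2 of the 28 had negative log2 fold changes, Fbxo32 among them. Among the 13 were Cox6a2, Myot, Myom1, Klhl41, Trdn, Casq2, Srl, Lmod3, Tcap, Ldb3, Pgam2 and Cacng1, with Cox6a2, a respiratory chain subunit of muscle, at 102 ± 60.4 FPKM in R-WT and 3.02 ± 2.77 FPKM in R-Het. The summed level of the further muscle genes ran from 196.4 to 490.8 FPKM in R-WT and from 37.01 to 56.09 FPKM in R-Het, and from 41.82 to 176.8 FPKM in P-Ctrl and 92.85 to 395.0 FPKM in P-KO. Of 8 genes of the neuromuscular junction 3 were tested and none passed in either set by limma. At an unadjusted p under 0.05, 3 were lower in R-Het and 0 higher in P-KO, against 8.32% and 15.7% of all tested genes.

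Genes of muscle precursors behaved unevenly. Of 6 genes 4 were tested, and Myf6, a regulator that muscle fibres keep, fell in R-Het (-2.0, adjusted p = 0.0403 by limma) from 3.66 ± 2.82 to 0.039 ± 0.0676 FPKM. Cdh15 and Megf10, known from satellite cells, stood at 3.36 to 7.88 and 4.47 to 9.04 FPKM in all mice, in contrast to Pax7. Their adjusted p-values by limma were 0.244 or more in both sets. Cdh15 was at 6.85 to 7.88 FPKM in P-Ctrl and 3.36 to 6.38 FPKM in P-KO. Mymk, also tested, had log2 fold changes of 1.14 in P-KO and -0.98 in R-Het and did not pass. At an unadjusted p under 0.05, 1 of the 4 was higher in P-KO and 2 were lower in R-Het, against 15.7% and 8.32% of all tested genes. Of 7 heart genes, Nppa, Myl7, Myh6, Nppb and Ryr2 did not pass 0.638 FPKM in any mouse, while Tnni3 stood at 1.23 to 3.29 FPKM and Tnnt2, which immature skeletal muscle also makes, reached 3.51 FPKM.

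Genes of other cell types changed beside the muscle genes, and their part in the muscle values was not tested. In the 7 smooth muscle genes, Cnn1 and Tagln rose in P-KO (2 of 4 tested, adjusted p of 0.0359 and 0.0339 by limma), against 1.01% of all tested genes called higher. None passed in R-Het by limma. At an unadjusted p under 0.05, 3 of the 4 were higher in P-KO and 3 in R-Het, against 15.7% and 7.09% of all tested genes. The summed level of the 7 genes was 150.5 to 211.0 FPKM in P-Ctrl and 263.7 to 333.4 FPKM in P-KO, and 172.7 to 220.1 FPKM in R-WT and 253.9 to 368.3 FPKM in R-Het, so the sum was higher in both mutants. Most of it lay in Acta2 and Tagln (means of 122 and 148 FPKM in R-Het). All 4 tested genes had positive log2 fold changes in both sets. The untested Myh11 and Synpo2 had lower means in R-Het (0.438 and 0.487 FPKM) than in R-WT (0.586 and 0.837 FPKM). The 8 osteoblast genes summed to 33610 to 35720 FPKM in P-Ctrl and 15610 to 22100 FPKM in P-KO, and to 29640 to 33400 FPKM in R-WT and 19610 to 25460 FPKM in R-Het. The summed osteoblast level was thus lower in both mutants without overlap, with Bglap (osteocalcin) as the only 1 of the 8 that passed in P-KO and none in R-Het by limma. At an unadjusted p under 0.05, 6 of the 8 were lower in P-KO and 2 in R-Het, against 5.63% and 8.32% of all tested genes. All 8 had negative log2 fold changes in P-KO, and 5 had them in R-Het. In R-Het most of the lower sum lay in Spp1 (17800 ± 2420 FPKM in R-WT against 10500 ± 1470 in R-Het, SD, n = 3 each), which did not pass the test, while Col1a1, Alpl and Sp7 had log2 fold changes of 0.18, 0.15 and 0.08. The mean summed level of the 40 muscle genes was higher in P-KO and lower in R-Het than in the controls.

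Further lists were counted in the same fits. The 4 tendon genes had no call in either set, at 171.1 to 266.5 FPKM in P-Ctrl, 329.5 to 353.8 FPKM in P-KO, 226.2 to 313.3 FPKM in R-WT and 194.9 to 294.3 FPKM in R-Het. Of 6 cartilage genes Col2a1 fell in P-KO, and of 4 endothelial genes Pecam1 fell in R-Het. No gene passed among 5 Schwann cell, 4 neural, 4 erythroid, 1 skin and 2 adipocyte genes tested, nor among 2 heart genes, by limma. At an unadjusted p under 0.05, 15.7% of all tested genes were higher and 5.63% lower in P-KO, and 7.09% were higher and 8.32% lower in R-Het. By that threshold, the Schwann cell list held 4 higher in P-KO, the neural list 2, the tendon list 4 and the heart list 1. Lower in P-KO were 2 erythroid, 5 cartilage and 1 endothelial genes. In R-Het, the tendon list held 2 higher and 1 lower, the cartilage list 1 higher, the erythroid list 4 lower, and the heart and endothelial lists 1 lower each, and the skin and adipocyte lists held none in either set.

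**Figure D5:**
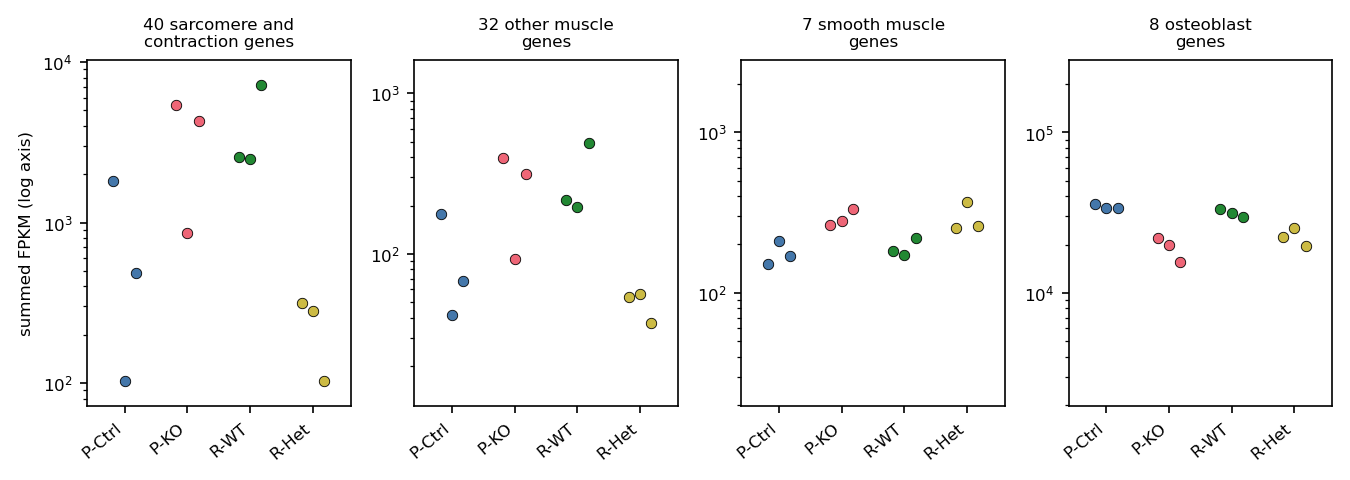
Summed FPKM (log axes of equal span) of the 40 sarcomere and contraction genes, 32 other muscle genes, 7 smooth muscle genes and 8 osteoblast genes in each mouse (points, 3 per group). The muscle panels spread widely and fall in R-Het, while the sum of the smooth muscle genes is higher and that of the osteoblast genes lower in both mutants.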

How the data were processed

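RNA-seq libraries of 12 calvariae were analysed, with groups taken from the deposited labels. The files deposited by the authors hold FPKM, a value for each RefSeq transcript in each library; this unit was inferred from the values. The submitters' processing notes name Bowtie 0.12.8 and the build mm10, without their roles, and the program that made the values is not given in the sources used here. Values were added up per gene symbol (29835 transcripts matched by the NCBI table, 180 by GENCODE, 396 unmatched). Genes that reached 1 FPKM in 3 or more mice entered the test on log2(FPKM + 1) with limma 3.58.1 in R 4.3.3 (mean-variance trend, 6 mice per set, Benjamini-Hochberg adjustment over 13059 genes, threshold 0.05). The difference between the sets was an interaction contrast over all 12 mice. The fit was checked on simulated data. With 3 mice against 3, an exact permutation test cannot go below 0.1. Fragments were estimated from the smallest values, which is rough.

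The members and lists were chosen with earlier results of these data known. Values in every mouse were given for all 6 listed heavy chains, all myogenic regulators and the 2 most abundant genes of each other role, and group means for fast and slow troponins. Actn2 and Pvalb were added for passing the difference, and other genes, ratios and shares were named after their values were seen. Neither batches nor dates are given, so no relation was recomputed within batches. Alternatives were another pseudocount, no filter, 2 rescalings, the highest transcript, no trend, a block by replicate number, 1 fit of all 12 mice, and leaving out mice. Tables were made with pandas 2.3.3 and numpy 2.4.6 (Python 3.11.15), plots with matplotlib 3.10.9.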

Additional observations from a re-analysis of the deposited data

Results flagged for a closer look

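Actn2 changed by 4.95 more in the P-KO comparison than in the R-Het comparison on the log2 scale, and Pvalb by 4.36 more. Both passed the interaction test across all genes (limma, adjusted p = 0.0481 and 0.0353), which is why they stand here. Under the 19 alternatives the difference of Actn2 ran from 4.41 to 7.14 and was past the threshold in 6, with adjusted p-values of 0.0128 to 0.141. That of Pvalb ran from 3.85 to 6.89 and was past it in 11, with adjusted p-values of 0.012 to 0.0987. No group had enough mice for a test of single outlying mice.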

How the results depend on the processing

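No count, median or named gene that was recomputed changed direction under the alternatives run. In P-KO, the count of muscle genes called higher was 0 and became 1 with all 12 mice in 1 fit, and it stayed at 0 under the other scalings, filters and pseudocount and when any mouse was left out (0 to 0). In R-Het, the count of 27 called lower became 0 with no filter on low values (lowest adjusted p 0.0516), 1 with all 12 mice in 1 fit, and 10 to 21 when a mouse was left out. It was 19 to 27 under the remaining alternatives other than the block. The 2 genes whose changes differed between the sets became 1 with a pseudocount of 0.1, 0 with no filter, 5 under each rescaling, 1 with the highest transcript, 1 without a trend, and 0 to 29 when a mouse was left out. The cause of these shifts was not tested. With a pseudocount of 0.1, the median log2 fold change in R-Het was -3.95 and the median difference 6.52. Over all tested genes, calls in P-KO were 132 higher and 73 lower, and 41 and 65 after rescaling to the same sum. All 33 tested muscle genes kept the sign of their log2 fold change in each set under all of these alternatives, those that left out a mouse included.

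It is not known whether replicate numbers pair the mice, since no label says so, and the main fits treated the mice as unpaired. Same-numbered mice of the P set had correlated deviations of 0.18, 0.259 and 0.0528, and those of the R set 0.00482, -0.0474 and -0.0836. In the P set each mouse correlated best with its own number, a hint from the data and not from the design. The muscle genes themselves entered these correlations, and without the muscle lists the values of the P set were 0.109, 0.148 and 0.0534. With the replicate number as a block, 26 muscle genes were called higher in P-KO, 12 lower in R-Het, and 29 differed between the sets.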

Other observations

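The ratio of Myl1 to Acta1 was 0.908 to 1.38 in the 6 P-Ctrl and P-KO mice and 1.5 to 2.22 in the 6 R-WT and R-Het mice, without overlap and irrespective of genotype. Among the 32 tested muscle genes set against Acta1, Myl1 was the only one whose ratios did not overlap between the sets. The ratio was chosen after the values were seen, and it was not tested. Sequencing runs and dates are not given, so the set and a run cannot be told apart.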
